A study of Mus musculus with 12 samples.

Results

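Among arrays of cultured endothelial cells that did not carry transmembrane TNF, 4 had high signals for the type I and type III collagen genes. Another 4 had low ones, and these 2 sets differed in far more than collagen. The sets were chosen by measured values. For each of 8 arrays a score was taken over the fibroblast-associated genes Col1a1, Col1a2, Col3a1, Dcn, Lum, Pdgfra and Pdgfrb, as the mean of log2(signal + 16) minus each gene's mean over the 8 arrays. The 4 arrays with the highest scores are called the high side here and the 4 with the lowest the low side. They are 8 of the 12 arrays of the study. Each side held 2 arrays of mock-transfected controls and 2 of cells exposed for 4 h to soluble TNF (20 ng/ml), so side and treatment were balanced. The high side was control replicates 3 and 4 with soluble TNF replicates 1 and 4, and the low side was control replicates 1 and 2 with soluble TNF replicates 2 and 3.

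All cells were endothelial cells of newborn wild-type Mus musculus, grown in DMEM with 10% FCS, and the labels name no line, clone, passage, sex or tissue of origin. The remaining 4 arrays were from cells transfected with a transmembrane form of TNF (tmTNF) for lasting activation. They did not set the sides and are given only as values. The study set out to compare short with lasting activation of endothelium. Each array was hybridised with material from about 5 micrograms of total RNA on a short-oligonucleotide expression array that reads a gene through 1 or more probe sets. Whether the replicates came from separate cultures or animals is not in the labels, so a p-value here covers the spread among these arrays alone, and that spread may be technical, and 4 arrays a side limit the precision.

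Fibrillar collagens are the rope-like proteins of connective tissue. Fibroblasts and other mesenchymal cells secrete them as procollagens, whose end pieces are then cut off outside the cell. Endothelial cells instead rest on a sheet of type IV collagen and laminin and are recognised by junction and receptor proteins such as Pecam1, Cdh5 and Kdr. A culture of endothelial cells can hold other cells, and endothelial cells can take on mesenchymal genes. In an array of a whole culture, fewer cells of a type and less RNA per cell cannot be told apart.

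Signals are on a linear scale on which each array has a trimmed mean of 500, and a signal of 100 stands in for the background limit. High-minus-low differences are log2 values from a limma model with treatment as a covariate, ± its standard error (SE). Since the values that chose the sides come from the same arrays, these differences are a description and no p-value is attached to them. A gene is called past the fold where the difference was at least 4-fold (2 on the log2 scale) and the 4 high arrays lay wholly above or wholly below the 4 low arrays. Signals are listed as control replicates 3 and 4 and then soluble TNF replicates 1 and 4 for the high side, and as control replicates 1 and 2 and then soluble TNF replicates 2 and 3 for the low side. All log2 values are of signal + 16, which understates the differences of dim genes. Where 1 side lay under 100 throughout, the fold is a lower bound, the other side's mean against a signal of 100 on the same scale.

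The promoters of 4 genes are shown because these genes were near background on 1 side and bright on the other. Ndn and Cyba were bright on the high side, and Ctsz and Oma1 on the low side. Each stretch is the 250 bases upstream of the RefSeq gene start (GRCm38.p6, 5′ to 3′ on the gene's strand), at chr7:62348027-62348276 (plus strand) for Ndn, chr8:122432941-122433190 (minus strand) for Cyba, chr2:174439040-174439289 (minus strand) for Ctsz and chr4:103313596-103313845 (plus strand) for Oma1. Capitals mark matches, on either strand, to the TATA box letters TATAAA. They also mark the CCAAT box, searched by that name as its letters, and the GC box, searched as GGGCGG.
Ndn: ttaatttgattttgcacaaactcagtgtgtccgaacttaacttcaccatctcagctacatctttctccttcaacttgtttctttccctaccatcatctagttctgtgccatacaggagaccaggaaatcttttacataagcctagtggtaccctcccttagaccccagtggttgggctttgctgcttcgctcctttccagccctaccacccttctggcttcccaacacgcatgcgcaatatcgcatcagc
Cyba: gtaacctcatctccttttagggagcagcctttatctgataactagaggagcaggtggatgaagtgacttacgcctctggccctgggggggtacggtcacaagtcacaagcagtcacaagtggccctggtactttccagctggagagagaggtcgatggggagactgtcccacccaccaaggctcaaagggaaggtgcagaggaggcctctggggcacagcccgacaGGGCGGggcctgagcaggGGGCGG
Ctsz: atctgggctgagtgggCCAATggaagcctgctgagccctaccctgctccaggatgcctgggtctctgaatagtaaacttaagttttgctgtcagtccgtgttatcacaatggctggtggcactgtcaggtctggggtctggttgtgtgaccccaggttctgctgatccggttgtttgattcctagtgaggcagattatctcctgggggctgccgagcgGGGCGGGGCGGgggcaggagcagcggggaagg
Oma1: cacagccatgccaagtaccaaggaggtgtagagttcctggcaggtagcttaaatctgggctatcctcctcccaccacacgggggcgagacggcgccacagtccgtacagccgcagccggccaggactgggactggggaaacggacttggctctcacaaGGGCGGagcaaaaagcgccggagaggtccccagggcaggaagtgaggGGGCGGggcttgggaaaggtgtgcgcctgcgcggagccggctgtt
Cyba, Ctsz and Oma1 had 2 matches to GGGCGG each, Ctsz had 1 match to the CCAAT box, and no match to TATAAA was found in any of the 4. Among 32851 promoter windows of the same length, 32.7% held the GC box, 33.8% the CCAAT box and 12.4% the TATA box. The CG dinucleotide occurred 5 times for Ndn, 6 for Cyba, 7 for Ctsz and 16 for Oma1, against a median of 6 over all windows. A match is a description of the letters and not of a bound site.

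The scores of the high side were 1.58 (control replicate 3), 1.52 (soluble TNF replicate 1), 1.46 (soluble TNF replicate 4) and 1.14 (control replicate 4). Those of the low side were -1.24, -1.26, -1.43 and -1.76. The array just inside the high side and the one just outside it lay 2.38 apart. Most of this gap came from the collagens. Over the 4 other genes alone the lowest high array was at 0.206 and the highest low array at -0.109, and the order still put the same arrays on each side. The same sides also came out of 3 other scalings and 2 other pseudocounts. As these settings reuse the genes that made the split, they are no independent support for it.

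The label of fibroblast-marker-high cultures was borne out by part of its markers only. Col1a2 had signals of 4009, 769, 3248 and 2834 on the high side and 74.5, 89.0, 28.5 and 6.1 on the low side. Col3a1 had 4547, 1901, 4119 and 3758 against 6.0, 48.6, 1.6 and 13.5, and Col1a1 had 818, 315, 429 and 495 against 4.4, 3.6, 31.9 and 2.0. Pdgfra, the receptor for platelet-derived growth factor AA, reached 144 to 579 on the high side and 61.1 to 111.7 on the low side. Dcn and Lum, small proteoglycans that bind collagen fibrils, stayed under 100 on all 8 arrays, and Pdgfrb reached 118 on 1 array only. Of 20 other fibroblast markers, 13 were under 100 on all 8 arrays, among them Thy1, Postn, Dpt, Twist1 and Tcf21. The sets are therefore described as collagen-high and collagen-low cultures, with no cell type attached. The word cultures stands for arrays throughout, since the labels do not say whether the replicates were separate cultures. The 7 score genes are left out of every count that follows.

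**Figure D1:**
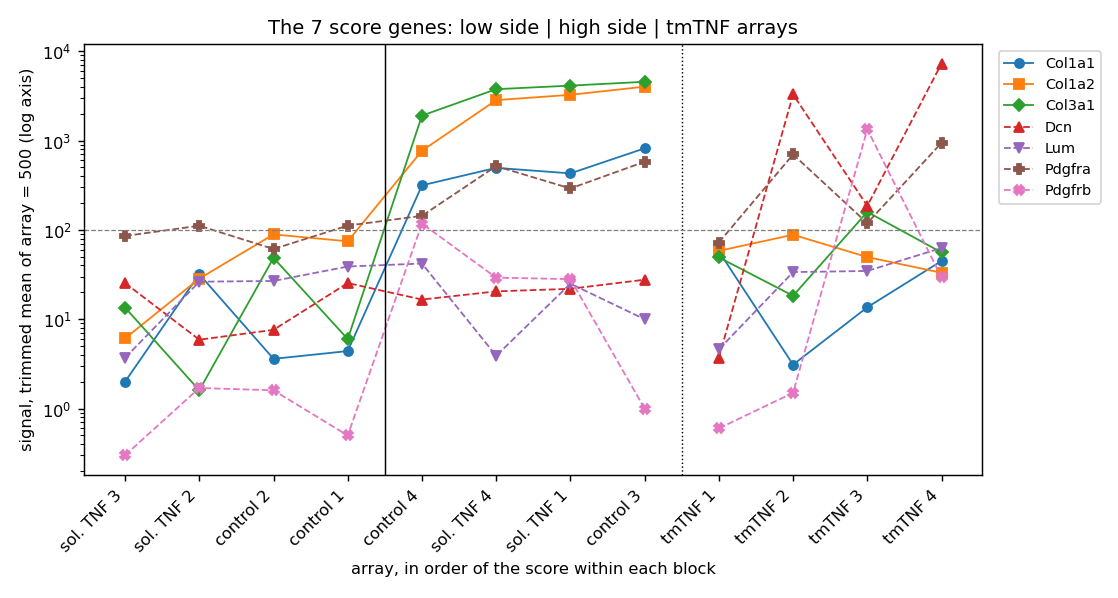
Signals of the 7 score genes (log axis; the dashed line is 100) on each array, ordered by score within the low side, the high side and the tmTNF arrays. The 3 collagens are at 315 or more on every high array and at 89.0 or less on every low array, while Dcn and Lum stay under 100 on all 8 arrays.

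The arrays also differed in ways that the sides do not set. Between 17652 and 18359 probe sets reached 100 on the 8 arrays, and the 3′ to 5′ ratio of Actb, a sign of RNA integrity, was 1.101 to 1.291. Correlations between arrays, over genes that are not independent replicates, had medians of 0.901 for the same side and treatment (0.817 to 0.984) and 0.889 for the same side and the other treatment (0.822 to 0.948). They had medians of 0.872 for the other side and the same treatment (0.735 to 0.908) and 0.795 where both differed (0.776 to 0.905). The first principal component, computed without the score genes, held 38.2% of the variance and put the high side at 10.8 to 56.7 and the low side at -57.7 to -22.1. Control replicates 1 and 3 stood apart on the second component (74.03 and 39.95, with the other 6 arrays at -25.3 to -8.00). The single probe set used for Serpinh1, the collagen chaperone of the endoplasmic reticulum, read 2.5 on control replicate 1 and 9435 or more on the other 7 arrays.

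In all, 130 of 9748 genes (1.33%) were past the fold on the higher side in collagen-high cultures and 71 (0.728%) on the lower side, together 201 (2.06%). The 4 arrays of each side did not overlap in 656 genes higher (6.73%) and 530 lower (5.44%), and the median difference over all genes was 0.042. With each treatment taken alone, 2 arrays a side, 92 of the 130 were at least 4-fold higher in controls and in soluble TNF cultures alike. Likewise, 51 of the 71 were at least 4-fold lower in both. Over all 9748 genes these counts were 116 higher in both and 69 lower in both. The rule for the fold fixes the same sign in both treatments and favours a large size, so the counts are a description only. Without control replicate 4 the count of lower genes was 142, and leaving out any other array gave 67 to 104. The higher count ran from 129 to 164.

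**Figure D2:**
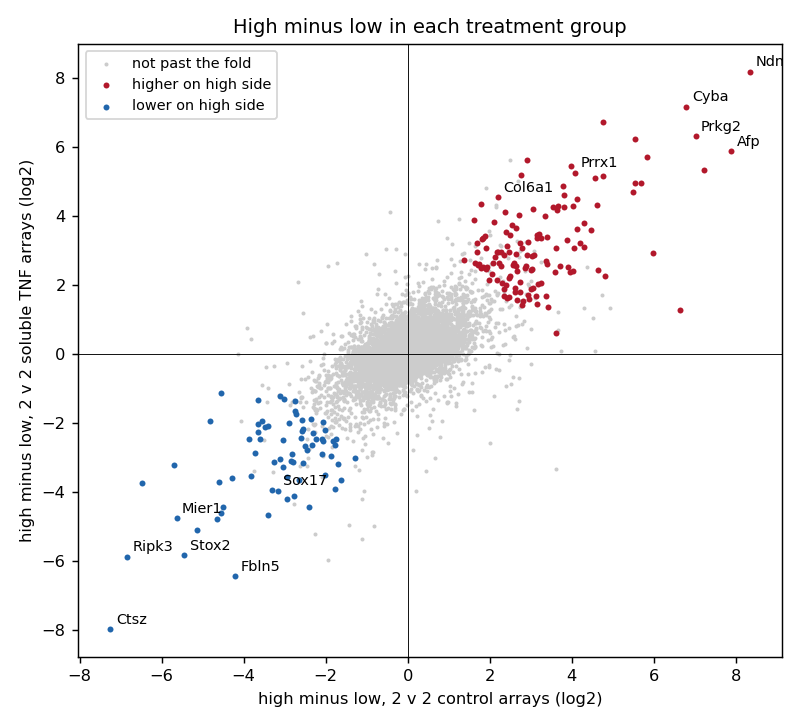
High-minus-low difference (log2) of each gene in the control arrays (x axis) and in the soluble TNF arrays (y axis), each 2 arrays against 2, with genes past the fold coloured. Ndn, Cyba, Afp and Prkg2 lie at the upper right and Ctsz, Ripk3 and Stox2 at the lower left. For genes past the fold, the same sign under both treatments follows from the rule.

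The gene with the largest difference was Ndn, which encodes necdin, an imprinted protein that is made from the paternal copy and restrains cell growth. Its signals were 6601, 7058, 7291 and 6717 on the high side and 1.8, 8.5, 14.4 and 3.6 on the low side. The high arrays agreed within a narrow range and the low arrays were all near background. The difference was 8.26 ± 0.22, at least 59.7-fold. Among the other imprinted genes with a value, Mest (-0.68 ± 0.94), Sgce (0.93 ± 0.33) and Gnas (0.25 ± 0.12) were not past the fold.

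Cyba, the membrane subunit that holds the superoxide-producing NADPH oxidase together, followed the same pattern. Its signals were 1585, 2738, 2540 and 3225 on the high side and 3.9, 1.8, 2.4 and 6.2 on the low side, at least 21.2-fold apart (6.98 ± 0.26). Afp, the fetal plasma protein alpha-fetoprotein, had 6211, 7703, 9501 and 8803 against 2.7, 29.4, 141.6 and 139.7 (6.88 ± 0.45). Prkg2, a cyclic GMP-dependent protein kinase, was more uneven on the high side. It had 15090, 455.9, 2204 and 3248 against 1.5, 8.0, 51.1 and 1.2, at least 23.1-fold (6.67 ± 0.98). Cd24a, a glycoprotein of immature and epithelial cells, had 5451, 4788, 7492 and 9131 against 3.1, 44.7, 63.1 and 532 (6.27 ± 0.68).

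Among further genes of the high side, Serpinb2, an inhibitor of plasminogen activators, was at least 13.7-fold higher (5.89 ± 0.63). Lpl, the lipase that frees fatty acids from lipoproteins, differed by 5.74 ± 0.77, with 15281, 1555, 2603 and 4712 on the high side and 2.7 to 184 on the low side. As3mt, which methylates arsenic, was at least 9.24-fold higher and Cacna2d1, a subunit of calcium channels, at least 9.76-fold. Stag3, a cohesin subunit known from meiosis, was at least 5.77-fold higher and Ms4a4d at least 6.03-fold. Basp1, a protein of the inner cell membrane, differed by 4.84 ± 0.39 and Xdh, xanthine dehydrogenase, by 4.71 ± 0.96.

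On the low side the largest difference was that of Ctsz, which encodes the lysosomal protease cathepsin Z. Its signals were 1.3, 12.8, 1.9 and 6.8 on the high side and 1038, 10921, 6339 and 3974 on the low side, at least 35.6-fold apart (-7.61 ± 0.66). Ripk3, the kinase that starts necroptotic cell death downstream of TNF receptors, had 16.9, 15.5, 27.1 and 34.0 against 12764, 1060, 2641 and 2778, at least 27.4-fold (-6.36 ± 0.67). Stox2, a winged-helix protein, was at least 12.4-fold lower on the high side (-5.64 ± 0.52). In these 3 genes every low array was bright and every high array was under 100.

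Among other genes of the low side, Fbln5, a glycoprotein needed to assemble elastic fibres, had 126.8, 1395, 98.4 and 71.4 on the high side and 3823, 17886, 6439 and 11583 on the low side (-5.32 ± 0.83). Tc2n differed by -5.12 ± 0.78, Rbp7, a retinol-binding protein, by -4.57 ± 0.68, and Lcp1, an actin bundler of blood cells, by -4.04 ± 0.75. Serpina1b, an antiprotease, was at least 6.67-fold lower, Mn1 at least 5.41-fold and Mical1, which disassembles actin filaments, at least 3.7-fold. Of 44 named genes past the fold, 23 had a second probe set that passed the filter, and all 23 of these had the same sign, though not always a like size. Many of these probe sets passed the filter through the bright side alone, which fixes their sign, so the count is no independent support. Probe sets under the filter were not counted, and some of them, for Bmpr1a, Mier1 and Prrx1 among others, had the opposite sign with signals under 100.

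**Figure D3:**
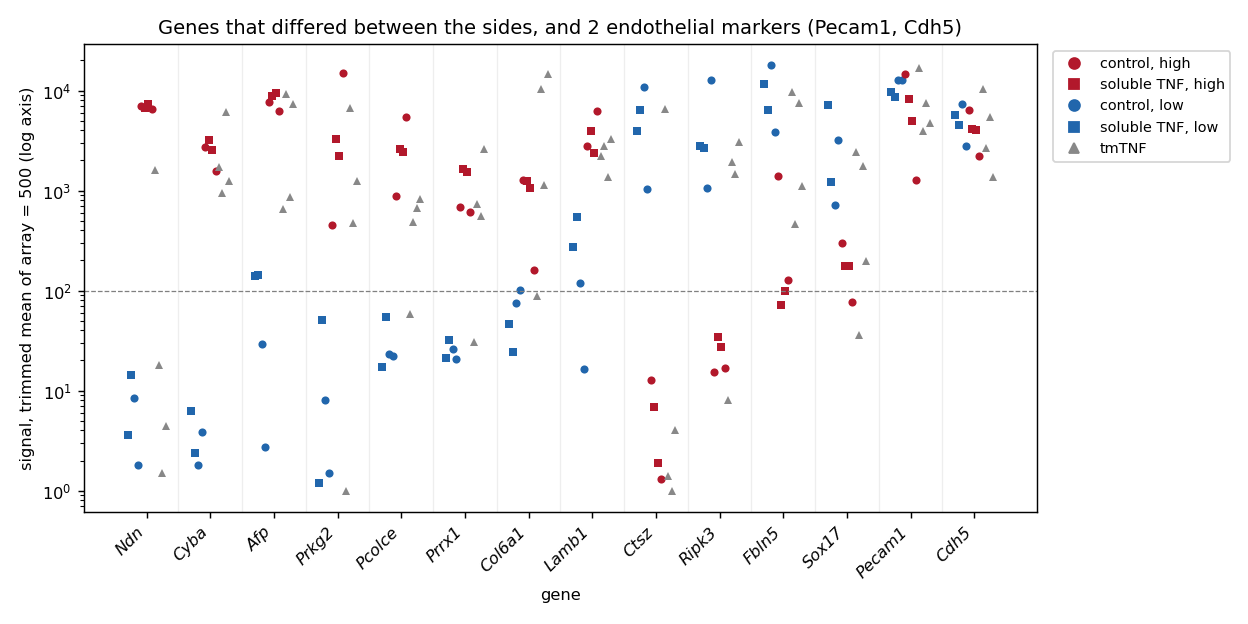
Signal (log axis; the dashed line is 100) of 12 genes past the fold and of the endothelial markers Pecam1 and Cdh5 on each of the 12 arrays, coloured by side and shaped by treatment. The sides are apart in the first 12 genes and overlap in Pecam1 and Cdh5, and the tmTNF arrays take either level.

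The genes that process and accompany the fibrillar collagens were partly higher with them. Pcolce, which speeds the cutting of procollagen ends, had 5482, 878.5, 2448 and 2596 on the high side and 22.3, 23.1, 54.6 and 17.1 on the low side, at least 20.4-fold apart (5.78 ± 0.53). Bmp1, the protease that makes this cut, had 904, 565, 664 and 847 against 49.0, 255, 221 and 239 (2.05 ± 0.44). These were 2 of 13 tested genes of collagen processing and crosslinking past the fold, with none lower, beside 2.06% of all genes past the fold. The list median was 0.62 (0.20 without control replicate 1), beside 0.042 over all genes. The enzymes that hydroxylate collagen did not follow. P4ha1 differed by -0.56 ± 0.37, P4ha2 by 0.61 ± 0.58, Plod1 by -0.76 ± 0.27 and Plod2 by 0.95 ± 0.42, none past the fold. Lox and Loxl1, which crosslink fibrils, were under 100 on all 8 arrays.

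Of 12 other collagen genes tested, 2 were past the fold higher and 1 lower, with a median of 0.83, beside 2.06% and 0.042 over all genes. Col6a1 and Col6a2, which are neighbours on chromosome 10 and form the beaded filaments of type VI collagen, were the higher ones. Col6a1 had 160.9, 1265, 1051 and 1241 on the high side and 100.2, 75.0, 24.1 and 45.8 on the low side (3.38 ± 0.69), so control replicate 3 lay close to the low side. Col6a2 differed by 2.18 ± 0.41, and by 4.08 to 4.43 with arrays scaled to the same median, quantile normalization, values as deposited or no filter. Its other probe set differed by 4.10. Col6a3, the longest chain of that filament, differed by 0.89 ± 0.55 and overlapped. Col13a1, a transmembrane collagen, was lower (-2.84 ± 0.93, and -1.90, under the fold, without control replicate 3). The basement membrane chains Col4a1 (0.22 ± 0.43) and Col4a2 (-0.09 ± 0.31) were bright on every array, at 5323 to 24668 and 5330 to 14889.

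Other matrix genes went both ways. Of 17 tested matrix glycoproteins and proteoglycans, 1 was past the fold higher and 1 lower, with a median of -0.02, beside 2.06% and 0.042 over all genes. Lamb1, the beta 1 chain of laminins, had 6186, 2803, 2370 and 3981 on the high side and 16.6, 118, 547 and 275 on the low side (4.46 ± 0.72), and Fbln5, above, was the lower gene. Among 12 tested matrix proteases and inhibitors only Mmp2, a gelatinase, was past the fold, beside 2.06% of all genes. Its signals were 435, 880, 690 and 778 against 38.0, 30.9, 24.0 and 21.4, at least 5.95-fold (3.97 ± 0.29).

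Of 6 tested fibroblast markers outside the score, 2 were past the fold, beside 2.06% of all genes. Prrx1, a homeobox factor of limb and connective tissue mesenchyme, had 613, 690, 1532 and 1638 on the high side and 20.9, 26.2, 31.7 and 21.0 on the low side, at least 8.90-fold (4.66 ± 0.29). Pi16, a marker of adventitial fibroblasts, had 362, 139.7, 103.9 and 118.6 against 10.3 or less, at least 1.51-fold. The other 4 overlapped: S100a4 (-0.95 ± 0.51), Fstl1 (-0.50 ± 0.33), Mfap5 (-0.84 ± 0.95) and Serpinf1 (0.53 ± 0.91). The median of the 6 was 0.02, beside 0.042 over all genes. The summed signal of all 20 markers was 8639 to 39400 on the high side and 35728 to 43835 on the low side, most of it from S100a4 and Fstl1.

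Markers of most other cell types were dim, with bright exceptions, among them mesothelial and adipocyte genes. None of the 9 epithelial and 8 skeletal muscle markers passed the filter. The keratin genes Krt20 and Krt13, in none of these lists, were past the fold higher, by 3.07 to 3.96. Krt20 read 5903, 2506, 2041 and 2492 on the high side and 3.8, 58.2, 793 and 1076 on the low side. Of 13 mural and smooth muscle markers 9 were under 100 on all 8 arrays, and Acta2, the actin of smooth muscle and myofibroblasts, differed by 0.13 ± 0.72 and overlapped. Of 12 leukocyte markers 7 were under 100, with a summed signal of 869.5 to 4025 on the high side and 709.8 to 19031 on the low side, and Ptprc was near background throughout. Of 10 mesothelial markers 7 were under 100 throughout, among them Wt1 and Upk3b. The 2 tested mesothelial ones, Msln (2.70 ± 1.15) and Krt19 (2.85 ± 0.85), were high on 3 of the 4 high arrays. Msln read 3412, 91.6, 938 and 1578 there and 24.3 to 467 on the low side, and Krt19 read 7120, 249, 3244 and 2801 against 166 to 397. Of 8 adipocyte markers 7 were on the array, and 3 of these were under 100 on all 8 arrays. The 3 tested ones had positive differences, with a median of 1.56 (-0.03 without control replicate 1). Lpl, above, was past the fold. Fabp4, a fatty acid carrier of fat cells and capillaries, had 1.56 ± 1.35 and Pparg, the regulator of fat cell formation, 0.11 ± 0.30, both with overlap. The summed signal of this list was 11869 to 32249 on the high side and 881 to 34314 on the low side. The part of these cell types in the differences above was not tested. The 4 measured Y-linked and Xist genes were under 100 on all 8 arrays.

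The endothelial markers were bright on both sides and somewhat lower in collagen-high cultures. Of 23 tested markers 20 had a negative difference, with a median of -1.16 (-1.46 in controls and -0.79 in soluble TNF cultures), beside 0.042 over all genes. Only Sox17, a transcription factor of arterial endothelium, was past the fold, beside 2.06% of all genes. Its signals were 76.1, 299, 174.8 and 176.0 on the high side and 3173, 715, 1206 and 7215 on the low side (-3.56 ± 0.69). Pecam1, the platelet and endothelial adhesion molecule, had 1280, 14688, 4955 and 8142 against 12666, 12775, 8635 and 9566 (-1.03 ± 0.66), with overlap. Cdh5, the junction cadherin of endothelium, differed by -0.30 ± 0.38 (-0.63 by the median of its probe sets). Nos3, endothelial nitric oxide synthase, differed by -0.70 ± 0.57. Kdr, the main receptor for VEGF, differed by -1.16 ± 0.77. Vwf passed no filter.

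Control replicate 3 stood lowest in these markers. Its mean over the endothelial markers was -2.35 on the log2 scale, relative to the mean of the 8 arrays, while the other 3 high arrays were at -0.58, -0.19 and 0.84 and the low arrays at 0.18 to 1.10. Cldn5, the tight junction protein of vessels, read 77.8 there and 594 to 13357 on the other 7 arrays, and Cd34, a sialomucin of endothelium and progenitors, read 149.6 there against 7683 to 15486. Without control replicate 3 the list median was -0.38, and without control replicate 4 it was -1.79. Without this array Ndn differed by 8.26, Cyba by 7.17 and Prrx1 by 4.81, all past the fold, and of the named genes only Bmp1, Cdh2, Col13a1, Epas1 and Fzd6 dropped under the fold.

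The counts for growth factor pathways stand beside 2.06% of all genes past the fold. In the TGF-beta and BMP list 1 of 28 was higher, Bmpr1a, a type I receptor for BMPs, with 1055, 162, 290 and 453 on the high side and 4.6 to 59.0 on the low side (3.13 ± 0.61). The list median was 0.28, and Ltbp1, which tethers latent TGF-beta to the matrix, had a value of 2.78 ± 0.94 with overlap. In the IGF axis 1 of 9 was higher, Igfbp7, a secreted binding protein, with 1283, 1773, 3167 and 2501 against 41.1 to 272 (4.03 ± 0.51). Of these 9 genes 6 had a positive and 3 a negative difference, with a median of 0.14. The lowest was at -3.55 and not past the fold. Among 10 WNT genes 1 was lower, the receptor Fzd6 (-2.10 ± 0.49). In the PDGF and FGF pathway none of 9 was past the fold. The ligands Pdgfc (2.95 ± 0.77) and Pdgfb (-2.17 ± 0.61) had opposite signs.

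Regulators of the mesenchymal transition of endothelium gave 1 of 11 past the fold, beside 2.06% of all genes. It was Cdh2, N-cadherin, with 589, 260, 785 and 589 on the high side and 0.9, 107.5, 257 and 225 on the low side (2.30 ± 0.65), so the lowest high array and the highest low array nearly met. Snai1 (0.74 ± 0.47), Snai2 (1.03 ± 0.47), Zeb1 (-0.48 ± 0.22) and Zeb2 (0.41 ± 0.40), the factors best known for that transition, were not past the fold, and Vim, the mesenchymal filament protein, was level (-0.04 ± 0.08). Epas1, the hypoxia factor HIF-2 alpha of endothelium, was lower (-2.30 ± 0.59), with 694, 5445, 1784 and 2606 against 5824 to 17025. Nes, an intermediate filament of progenitor cells, was lower as well (-2.02 ± 0.32), but its other probe set that passed the filter differed by -0.17 and the median of its probe sets by -1.09, under the fold.

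A run of neighbouring genes on chromosome 4 was low together on the high side. Pde4b, Mier1, Slc35d1 and Oma1 are consecutive among the tested genes in RefSeq map order, and all 4 were past the fold lower. Pde4b, a cyclic AMP phosphodiesterase, had 19.3, 1.3, 13.4 and 2.5 on the high side and 525, 705, 496 and 797 on the low side (-4.73 ± 0.34). Mier1, a transcriptional regulator, had 3.3, 4.7, 2.7 and 24.9 against 1317, 722.5, 651.5 and 830 (-5.20 ± 0.37). Slc35d1, a nucleotide sugar transporter of the endoplasmic reticulum, had 3.0, 5.8, 18.8 and 3.2 against 515, 276, 268 and 323 (-3.93 ± 0.35). Oma1, a protease of the inner mitochondrial membrane, had 28.0, 17.8, 27.6 and 6.2 against 1222, 690, 430 and 347 (-4.15 ± 0.36).

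From Pde4b to Oma1 the array had 24 probe sets for 11 genes. Of these, 6 reached 100 on all 8 arrays outside the high side, tmTNF arrays included, with a lowest signal of 157.8. All 6 were under 100 on all 4 high arrays. Since they were picked as bright outside the high side, their count is a description. Other probe sets of the stretch reached 100 on some arrays only, none of them on the high side. One for Sgip1 read 184.4 and 390.3 on tmTNF replicates 1 and 3. It read 16.1 to 45.5 on the low side and 12.1 or less on the high side, while the other Sgip1 probe sets overlapped. One for Wdr78 read 171.1 on control replicate 1, 29.9 to 50.1 on the other low arrays and 25.7 or less on the high side. A further one for Pde4b read 63.1 to 97.2 on the low side and 16.1 or less on the high side. Most of these values lie under 100. No probe set of the 24 exceeded 47 on a high array. The 5 tested genes on each side of the stretch differed by -0.97 to 2.61 with none past the fold. The nearest, Leprot and Plpp3, were read on all 12 arrays.

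**Figure D4:**
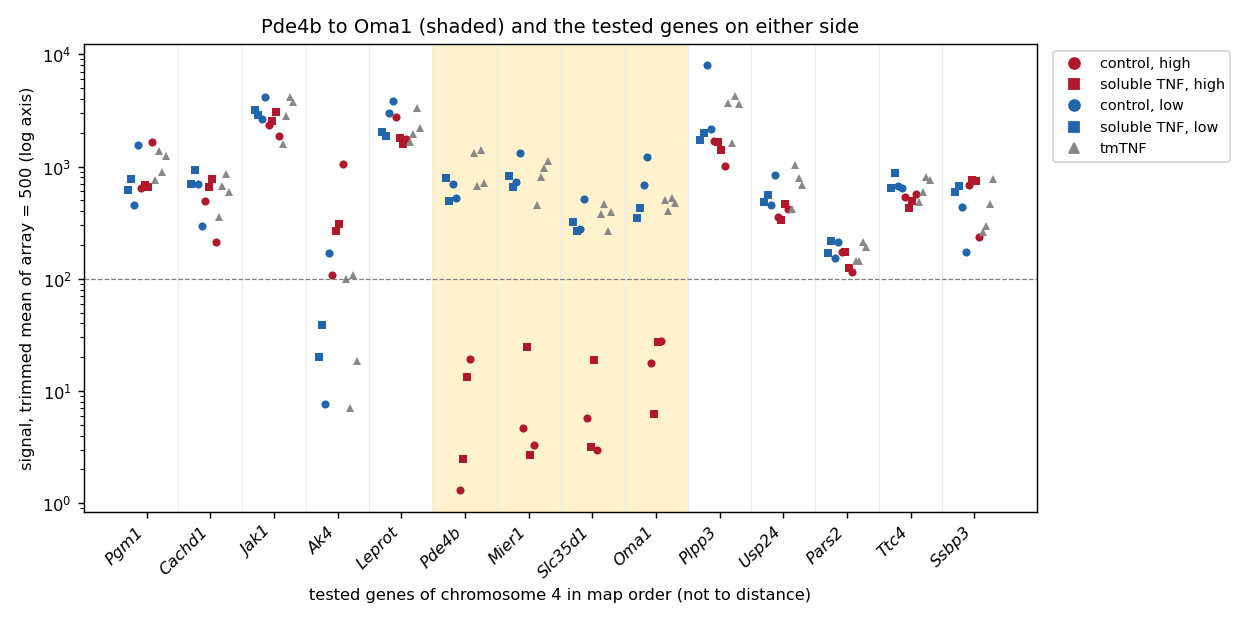
Signal (log axis; the dashed line is 100) on each of the 12 arrays for the tested genes around the chromosome 4 stretch, in map order and not to distance, with Pde4b to Oma1 shaded. In the shaded genes the 4 high arrays are at 28.0 or less and the other 8 arrays at 267.9 or more, while the flanking genes show no such gap.

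A pair elsewhere on chromosome 4 behaved alike. Cdkn2a and Cdkn2b, adjacent genes that encode inhibitors of cell cycle entry, were both lower on the high side. Cdkn2b had 48.3, 16.2, 10.7 and 3.8 against 2915, 352, 637 and 359, at least 6.18-fold (-4.47 ± 0.61). Cdkn2a had 5.4, 16.1, 3.3 and 8.8 against 183, 158.4, 111.8 and 191.6 (-2.86 ± 0.32). On the tmTNF arrays Cdkn2b read 707 to 4024 and Cdkn2a 89.4 to 637. The 10 tested genes around the pair differed by -1.44 to 1.73 with none past the fold.

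Neighbours among the genes past the fold were found in 9 runs that held 21 genes, and 2 runs had 3 or more. The second of these was Cfap69, Steap2 and Steap1 on chromosome 5, which were higher by 3.59 to 3.91. Steap2 encodes a metalloreductase. Steap2 had 7691, 1530, 4196 and 3897 on the high side and 108.5 to 778 on the low side. Sema3e and Cacna2d1, also on chromosome 5, and Krt20 and Krt13 on chromosome 11 were further pairs of the high side, and Tc2n and Fbln5 on chromosome 12 a pair of the low side. The genes of these runs were picked after their values were seen. Copy number was not measured, and the part of it in these runs was not tested.

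The tmTNF cultures, which did not set the sides, mixed the patterns. By the same score they ranked as -1.23, 0.11, 0.42 and 0.86 for replicates 1 to 4, all between the sides, with replicate 1 just above the highest low array (-1.24). Their collagen signals were low, with Col1a2 at 33.1 to 88.2 and Col3a1 at 18.3 to 158.8. Dcn instead read 3277 and 7271 on replicates 2 and 4, and Pdgfrb 1337 on replicate 3. For the 2 tmTNF arrays with the higher scores minus the other 2, 91 of the 130 higher genes (70.0%) had a positive sign, and 41 of the 71 lower genes (57.7%) a negative one. Of all genes 50.4% were positive. With 2 arrays against 2 no exact test can go below a p of 0.33, and none was made.

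Single genes showed how the patterns came apart in the tmTNF cultures. Ndn read 1612 on replicate 1, the array with the lowest score, and 17.9 or less on the others. Cyba read 945 to 6106 on all 4. Ctsz read 6590 on replicate 1 and 4.0 or less on the others, while Ripk3 read 8.1 on replicate 1 and 1476 to 3025 on the others. Col6a1 read 87.4, 10305, 1134 and 14786, above every array of the high side on replicates 2 and 4. Of 16 genes at 250 or more on all high arrays and under 100 on all low ones, 4 were under 100 on every tmTNF array (Cacna2d1, Mmp2, Serpinb2 and Stag3) and 2 reached 100 on all 4 (Cyba and As3mt). Of the 8 genes with the reverse pattern, 5 reached 100 on all 4, namely the chromosome 4 genes with Cdkn2b. These limits were chosen after the values were seen.

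The response to soluble TNF was asked with the side as a covariate, which the rule did not use. Over 4 h of soluble TNF 11 genes rose (0.113% of 9752 tested) and 1 fell (0.0103%), by limma with Benjamini-Hochberg adjustment over all genes. Without the side in the model 2 genes passed (0.0205%), Edn1 and Nfkb2, both among the 12. Counted at an unadjusted p below 0.05, these were 1724 genes with the side (785 higher and 939 lower) and 1290 without it. None of the 201 genes past the fold between sides was called for soluble TNF, but so few calls leave little room for a shared gene. The rule for the fold also pools both treatments, so a large response to soluble TNF can make the sides overlap, as in Thbs1 below. The count therefore does not show that the sets of genes are separate. The sizes of the response are the same in both models because the design was balanced, and only the errors differ.

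Edn1, the gene of endothelin 1, a peptide that narrows vessels, rose at least 14.7-fold (limma 5.86 ± 0.60, adjusted p = 0.0302). It read 1170 and 618 on the high side and 2618 and 4205 on the low side after soluble TNF, and 3.9 to 49.1 in controls. Tnfaip3, the deubiquitinase A20 that shuts off NF-kB, read 1429 and 2136 on the high side and 2458 and 3812 on the low side, against 174.2 to 449 in controls. It rose 7.84-fold (2.97 ± 0.25, limma adjusted p = 0.0204; adjusted p = 0.0529 without the side). Nfkb2, a subunit of that factor, rose 5.11-fold (2.35 ± 0.22, limma adjusted p = 0.0247). The SE of Tnfaip3 was 0.36 without the side, while that of Rgs16, described next, was 0.57 with the side and 0.55 without it.

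The other 9 calls all had a limma adjusted p of 0.048. Thbs1, the matrix protein thrombospondin 1, rose from 32.0, 31.4, 123 and 884 in control replicates 1 to 4 to 5184, 2605, 987 and 5608 in soluble TNF replicates 1 to 4 (4.51 ± 0.59). It was also higher on the high side (2.31 ± 0.59, not past the fold because the arrays overlapped), and its SE without the side was 0.96. Rgs16, which dampens signals from G protein-coupled receptors, rose 20.8-fold and Pwwp3b 6.49-fold. Crim1 (1.65 ± 0.20), the NF-kB adaptor Bcl10 (1.40 ± 0.19), the actin-binding tropomyosin Tpm1 (1.39 ± 0.17), Phlda1 (1.37 ± 0.17) and the lipid phosphatase Mtmr14 (1.31 ± 0.17) rose by less. The receptor Gpr146 fell by 2.23 ± 0.28, from 291 to 788 in controls to 73.7 to 109.3. Vcam1, the adhesion molecule for leukocytes, had a value of 4.87 ± 0.83 (limma adjusted p = 0.0879), the chemokine Ccl2 3.27 ± 0.57 (adjusted p = 0.0952) and the cotransporter Slc12a2 1.91 ± 0.31 (adjusted p = 0.0807), none of them called. Icam1 passed no filter.

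These calls were sensitive to leaving out single arrays. Their number was 0 without control replicate 1 and without each of the soluble TNF replicates 1, 2, 3 and 4. Without control replicate 2 it was 3, with 2 of the 12 genes among them. Without control replicate 3 it was 18, with only 3 of the 12 among them. Without control replicate 4 it was 147, with all 12 among them. The sizes moved less: Edn1 ran from 5.47 to 6.45, Tnfaip3 from 2.84 to 3.09 and Nfkb2 from 2.21 to 2.50.

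Whether collagen-high and collagen-low cultures answered soluble TNF differently could not be shown. By limma's interaction term 0 of 9752 genes passed (smallest adjusted p = 1), and 307 (3.15%) had an unadjusted p under 0.05, with 2 arrays in each cell of the design. Without control replicate 2 the count was 6. Edn1 had values of 4.59 on the high side and 7.12 on the low side, a difference of -2.53 ± 0.88 that did not pass (limma adjusted p = 1). Tnfaip3 had 2.96 and 2.99, and Nfkb2 2.37 and 2.33. Prss23, a secreted serine protease, had the smallest unadjusted p and is named for that after its values were seen. Its TNF value was 1.86 on the high side, with 1663 and 1902 in controls and 7861 and 5344 after soluble TNF. On the low side it was 5.19, with 534 and 294 in controls and 12749 and 17851 after soluble TNF.

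**Figure D5:**
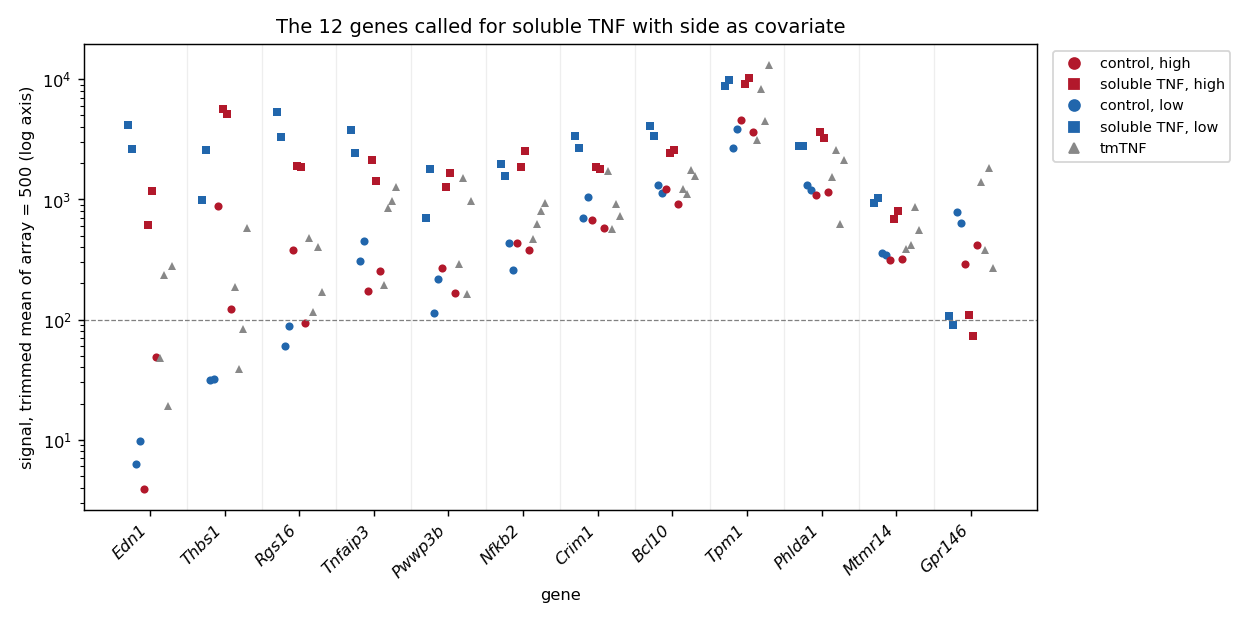
Signal (log axis; the dashed line is 100) on each of the 12 arrays for the 12 genes called between soluble TNF and control with the side as covariate. In all 12 genes the 4 soluble TNF arrays (squares) lie apart from the 4 control arrays (circles) on both sides; the tmTNF arrays are drawn for reference.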

How the data were processed

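Expression was measured on 12 arrays, 4 per group. Signal intensities per probe set were made with MAS5 by the authors, per the submitters' processing notes; its version and settings are not given in the sources used here. Scanner files were not used here. The deposited intensities were rescaled to a 2% trimmed mean of 500 per array, without 64 control probe sets. Of 45101 probe sets, 34958 had 1 gene symbol, 932 several and 9211 none; 34754 matched RefSeq (GRCm38.p6). Probe sets at 100 or more on at least 4 of the 8 arrays were kept (16884), and the one with the highest mean stood for its gene (9752 genes, 4 of them score genes). Models on log2(signal + 16) were fitted with limma 3.58.1 in R 4.3.3 (lmFit, eBayes with an intensity trend), two-sided, threshold 0.05, Benjamini-Hochberg adjusted. They were tested on simulated data. Replicate numbers follow accession order and pair nothing.

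The score genes, gene lists and tests were chosen with earlier results of these data known. Genes were named by a rule: the 15 largest differences each way among genes past the fold with approved symbols, up to 4 members past the fold of each list, up to 10 genes called for soluble TNF per direction, and 16 set genes. Mtmr14, list members not past the fold, and genes of runs and limits described as such, were added after values were seen. Alternatives were scaling, pseudocount, filter, probe set merging, the score genes, the covariate and each array left out.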

Additional observations from a re-analysis of the deposited data

Results flagged for a closer look

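In 128 groups of 4 arrays, each the score or a named gene on 1 side, or a gene named for soluble TNF in 1 treatment, 6 (4.69%) had 1 array far from the other 3, where chance gives about 1 in 20. On the high side Cacna2d1 read 1856.7 on control replicate 3, above the other 3 arrays, and Col6a1 read 160.9 there, below them. Mier1 read 24.9 on soluble TNF replicate 4, above the other high arrays, all of them near background. On the low side control replicate 1 stood apart in 3 genes, with Ms4a4d at 16.7 and Pi16 at 10.3 above the other low arrays, all near background, and Bmp1 at 49.0 below them.

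The tmTNF arrays, which the sides do not use, had score genes above every control array. Dcn read 3276.5, 185.5 and 7270.8 on replicates 2, 3 and 4, Pdgfra 699.0 and 943.7 on replicates 2 and 4, and Pdgfrb 1336.8 on replicate 3. The highest control signals were 27.7 for Dcn, 579 for Pdgfra and 118 for Pdgfrb.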

How the results depend on the processing

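Counts past the fold were 130 higher and 71 lower. With a pseudocount of 64 they were 73 higher, with a filter at 250 they were 67 and 43, with a fold of 2 they were 272 and 213, and with a fold of 8 they were 57 and 29. Leaving out 1 array gave 129 to 164 higher and 67 to 142 lower. With the side as covariate, the 12 calls for soluble TNF became 3 with values as deposited, 2 with a pseudocount of 1, 3 with no filter, 3 with the median of probe sets, 3 without an intensity trend and 3 over all 12 arrays with the score as covariate (0 to 147 leaving out 1 array). Without the side, the 2 calls became 7 with arrays scaled to the same median, 7 with quantile normalization, 1 with a pseudocount of 1, 4 with a pseudocount of 64 and 7 with a filter at 250 (0 to 42 leaving out 1 array). Interaction calls were 0 to 6 leaving out 1 array, and 0 in the other settings. The cause was not tested. Among the named genes only Acta2, at 0.13 and not past the fold, changed sign, to -0.41 without control replicate 2 and -0.56 without control replicate 4. Genes past the fold were picked for sides that do not overlap, so leaving out an array could not change their sign. Over the other alternatives, the 49 genes named between sides gave 561 values within 1 SD of the main one and 67 further away, and the 14 soluble TNF genes kept their side of the threshold in 104 cases and lost their call in 50. No paired analysis was possible because the replicate numbers follow accession order and pair no samples.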

Other observations

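All 48 measured cell cycle genes were short of the fold, and 45 of them were higher in collagen-high cultures. Their median was 0.39, beside 0.042 over all genes, with 0.71 in controls and 0.08 in soluble TNF cultures. Without control replicate 1 it was 0.14 with 30 genes higher, and without control replicate 4 it was 0.05 with 26 higher. Rrm2, a subunit of ribonucleotide reductase, had the largest value (1.44 ± 0.28), while Mki67, the proliferation marker, was level (0.05 ± 0.43). Interferon-stimulated genes gave 0 of 28 past the fold, with 23 higher and a median of 0.51 (0.17 without control replicate 1). Oasl1 had 2.58 ± 0.72 and the chemokine Cxcl10 2.02 ± 0.45. Angiogenesis and vasomotor genes gave 0 of 28, with 21 lower and a median of -0.70 (-0.33 without control replicate 3). Ednrb, an endothelin receptor, had -3.35 ± 0.53, with 822, 2345, 211 and 420 on the high side and 11097, 16945, 1551 and 7165 on the low side, and Gja4, a gap junction protein of arteries, had -3.96 ± 1.20, both with overlap. Ribosomal protein genes (0 of 24 past the fold) and oxidative phosphorylation genes (0 of 38, median -0.05) were level. Complement and acute phase genes had 2 tested members, Saa3 (1.24 ± 0.40) and Cp (2.40 ± 0.94), and cartilage and bone markers 1, Alpl (1.41 ± 0.91), none past the fold and all with overlap. These genes were named after their values were seen.

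Lyve1, a hyaluronan receptor of lymphatic endothelium, read 4853, 3776, 1657 and 4007 on the high side and 6850, 118.4, 221 and 57.6 on the low side (3.23 ± 1.14). It was high on control replicate 1 as well, and the lymphatic regulator Prox1 was under 100 on all 8 arrays.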
